A study of Homo sapiens with 7 samples.

Results

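The comparison described here set β-like cells of a METTL14 shRNA line against β-like cells of a scramble shRNA line, with both lines grown in doxycycline (Dox). The shRNA line, iKD2, gave 3 libraries under Dox (replicates a, b and c) and the scramble line, iSCR, gave 2 (a and b), which are 5 of the 7 libraries of the series. The members were taken by their labels, and all 22926 genes with enough counts to be tested were compared, with weight on the 4281 genes whose mean over the 5 libraries was at least 50 CPM (counts scaled to a common library total). All cells came from the established human embryonic stem cell line H1 and were carried to stage 6 of a pancreatic differentiation and sorted by flow cytometry with DA-ZP1, a dye that reports zinc, which insulin granules hold in high amount. iKD2 carried a Dox-inducible lentiviral shRNA against METTL14 and iSCR a non-targeting one, and both lines were selected in puromycin after transduction. No single-cell cloning is described for either line. iKD2 cells without Dox (iKD2 Dox-, replicates b and c, n = 2) are the remaining libraries of the series, and their levels are given beside the comparison.

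Since Dox was the same in both arms, the comparison asked what separates cells that express the METTL14 shRNA from cells that express a control shRNA. The arms also differ in the line itself, and the effect of the shRNA and the difference between lines cannot be told apart with iKD2 Dox+ and iSCR Dox+ alone. METTL14 forms, with METTL3 and WTAP, the core of the methyltransferase that places N6-methyladenosine (m6A) in mRNA. Reader proteins of the YTH and IGF2BP families bind the mark and alter the stability or translation of the transcript, and FTO and ALKBH5 remove it. In β-cells insulin is made as a precursor, cut by prohormone convertases and carboxypeptidase E, packed with zinc in granules that also hold granins, and released by calcium-triggered fusion of the granule with the membrane.

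Library totals in the 5 libraries ranged from 14875429 to 17126315 estimated counts. Replicates of one group correlated at 0.756 to 0.879 across the genes at 50 CPM or more (Pearson, log2 scale, 4 pairs within groups), and libraries of different groups at 0.748 to 0.830 (6 pairs). Genes are not independent replicates, and these values describe the libraries only. The ranges within and between groups thus overlapped. The study calls the libraries biologically independent samples, without naming the step at which they were separated, and the p-values measure the spread between them. At a mean of 50 to 100 CPM the 95% confidence interval of a fold change spanned a factor of 1.81 either way at the median gene (2382 genes). It spanned a factor of 1.25 at 1000 CPM or more (55 genes), so the abundant transcripts carry most of the precision.

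For METTL14, the target of the shRNA, iKD2 Dox+ a, b and c gave 18.6, 16.3 and 48.9 CPM, and iSCR Dox+ gave 36.0 and 32.0 CPM. The highest level of the 5 was in the library labelled iKD2 Dox+ c, and the groups overlapped. Its log2 fold change, -0.28, had an SE of 0.63 (95% CI -1.59 to 1.02, adjusted p = 0.963 by edgeR's quasi-likelihood test with Benjamini-Hochberg adjustment), and this interval covers both a lower and a higher level. Without the library labelled iKD2 Dox+ c it was -0.97, and the lowest adjusted p over 16 alternatives was 0.781. All directions below for iKD2 Dox+ include the library labelled c.

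At an adjusted p under 0.05, 6 of 22926 genes were called (0.0262%), 5 higher and 1 lower in iKD2 Dox+, and 1540 genes (6.72%) had an unadjusted p under 0.05. Of the 6 called genes, MUC16 and INS were at 50 CPM or more, where 2 of 4281 genes were called (0.0467%). The number of calls changed when single libraries were left out. Without iKD2 Dox+ a, b or c it was 2, 9 and 4, with 22282, 21978 and 21798 genes tested. Leaving out an iKD2 Dox- or iSCR Dox+ library leaves 1 in its group, which is assumed to vary like the others. The filter on counts then passed 27528 to 27992 genes, so the calls of those fits are not comparable and are not given. For a wider view of abundant genes, a gene was counted as apart when its unadjusted p was under 0.05 and all 3 iKD2 Dox+ libraries lay on one side of both iSCR Dox+ libraries. By that rule 227 genes were apart and higher (5.3% of 4281) and 184 apart and lower (4.3%). The mean of 50 CPM weighs 3 iKD2 Dox+ libraries against 2 iSCR Dox+ libraries. A gene high in one group alone can pass it, and more readily if that group is iKD2 Dox+. These sets are descriptions with no correction for the number of genes, and 0 of the genes in them other than MUC16 and INS passed the adjusted threshold. Without an iSCR Dox+ library the rule is easier to meet, since only 1 scramble library is left to compare with. Levels without overlap, whatever the p, were seen for 560 higher (13.1%) and 534 lower genes (12.5%). Counts of list members apart and higher or lower below stand against the 5.3% and 4.3%.

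**Figure D1:**
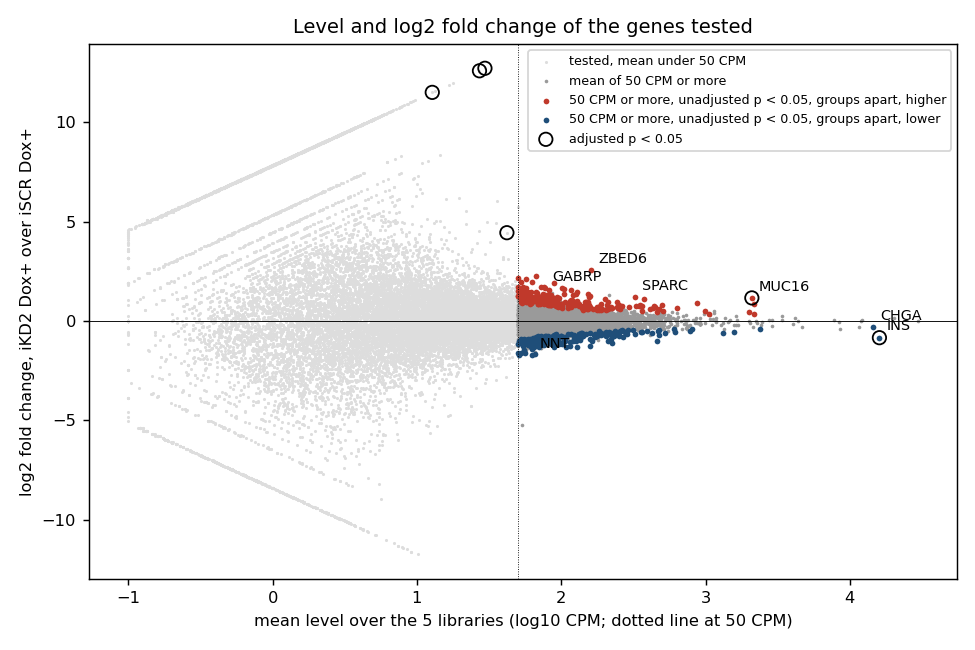
Each point is a gene tested, with the mean level over the 5 libraries on the x axis (log10 CPM) and the log2 fold change of iKD2 Dox+ over iSCR Dox+ on the y axis. Genes at 50 CPM or more that were apart between groups are coloured (red higher, blue lower), and rings mark the 6 genes with an adjusted p under 0.05, of which INS and MUC16 lie to the right of the dotted line at 50 CPM.

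Promoters of 4 genes are shown, because they stand for both directions among abundant transcripts: INS and CHGA (lower level in iKD2 Dox+), and SPARC and ANXA1 (higher level). Each run covers 250 bases before and 50 bases from the annotated start on (RefSeq, GRCh38.p14). Capitals mark matches, on either strand, to TAAT (a core bound by homeodomain factors such as PDX1), CATCTG (a form of the E-box bound by bHLH factors such as NEUROD1), TGACGTCA (the cAMP response element) and TATAAA (bound by the TATA-binding protein).
INS, chr11:2161160-2161459, minus strand: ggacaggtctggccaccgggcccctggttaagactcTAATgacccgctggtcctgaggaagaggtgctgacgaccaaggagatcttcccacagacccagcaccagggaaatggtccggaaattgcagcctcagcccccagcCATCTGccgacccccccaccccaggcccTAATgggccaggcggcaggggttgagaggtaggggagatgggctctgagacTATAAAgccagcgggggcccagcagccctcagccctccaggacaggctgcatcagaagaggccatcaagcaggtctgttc
CHGA, chr14:92922900-92923199, plus strand: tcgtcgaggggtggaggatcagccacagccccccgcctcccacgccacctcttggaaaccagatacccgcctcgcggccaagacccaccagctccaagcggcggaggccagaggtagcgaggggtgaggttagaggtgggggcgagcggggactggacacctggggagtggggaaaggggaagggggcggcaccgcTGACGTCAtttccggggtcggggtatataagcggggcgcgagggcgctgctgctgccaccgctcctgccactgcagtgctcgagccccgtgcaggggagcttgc
SPARC, chr5:151686866-151687165, minus strand: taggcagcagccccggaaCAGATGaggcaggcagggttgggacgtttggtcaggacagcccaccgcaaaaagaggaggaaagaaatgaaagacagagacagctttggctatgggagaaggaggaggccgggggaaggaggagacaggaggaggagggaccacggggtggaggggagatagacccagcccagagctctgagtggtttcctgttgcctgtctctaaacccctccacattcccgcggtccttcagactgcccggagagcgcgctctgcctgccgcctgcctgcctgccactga
ANXA1, chr9:73151615-73151914, plus strand: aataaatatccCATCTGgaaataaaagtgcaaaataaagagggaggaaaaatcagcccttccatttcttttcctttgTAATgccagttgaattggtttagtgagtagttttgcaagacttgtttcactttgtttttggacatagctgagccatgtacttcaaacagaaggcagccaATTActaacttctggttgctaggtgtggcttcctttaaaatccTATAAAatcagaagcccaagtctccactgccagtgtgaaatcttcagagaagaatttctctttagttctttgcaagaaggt

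The INS promoter held 2 matches to TAAT, 1 to CATCTG and 1 to TATAAA, the CHGA promoter 1 to TGACGTCA, the SPARC promoter 1 to CATCTG, and the ANXA1 promoter 2 to TAAT, 1 to CATCTG and 1 to TATAAA. No 2 of these motifs overlap in the runs shown. Of 35116 promoters of this length, 50.2% held TAAT, 14.7% CATCTG, 1.85% TGACGTCA and 11.5% TATAAA. These belong to genes of any level, whereas genes apart are all at 50 CPM or more, so the sets are not matched in level. Among the promoters of genes apart and lower (235 promoters of 141 genes found in the table) the shares were 38.7%, 7.66%, 3.83% and 8.94%, and among those of genes apart and higher (285 promoters of 180 genes) they were 37.5%, 12.6%, 3.16% and 8.42%. These matches describe the sequences and were set against no measure of binding.

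INS, which encodes insulin, was the gene that fell and the third most abundant transcript of the 5 libraries by CPM. iKD2 Dox+ a, b and c held 11593, 13542 and 11322 CPM, whereas iSCR Dox+ a held 22232 CPM and b 21426 CPM. Each scramble library was above every iKD2 Dox+ library, and the log2 fold change was -0.85 with an SE of 0.10 (95% CI -1.06 to -0.63, edgeR adjusted p = 4.71e-04). INS (chromosome 11, 2159779 to 2161341, GRCh38) shares exons with the read-through gene INS-IGF2, but made up 99.6% to 100% of the sum of both. Leaving out iKD2 Dox+ a gave -0.81 with an adjusted p of 0.0638. In iKD2 Dox- b and c INS was at 17348 and 14584 CPM, between the levels of the compared groups.

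The islet peptide hormone list had 5 members at 50 CPM or more. INS and TTR were apart and lower, against 4.3% of all genes at that level. The median log2 fold change was -0.39 against -0.01 over all 4281. TTR, transthyretin, is a carrier protein and not a hormone, so INS was the only hormone of the list apart. TTR is made by α- and β-cells, and was at 890, 1371 and 1016 CPM in iKD2 Dox+ and 1714 and 1641 CPM in iSCR Dox+. Its log2 fold change was -0.62 (SE 0.18, adjusted p = 0.466). GCG, the precursor of glucagon, was at 5025, 9444 and 8527 CPM against 10673 and 9376 CPM. The library iKD2 Dox+ a stood lowest and the groups overlapped. SST, somatostatin, was at 3893, 2697 and 2065 CPM against 3694 and 1981 CPM, and thus varied more within each group than between them. INS transcripts were therefore lower by a factor of 1.80 where those of SST lay within one range. In bulk samples, fewer cells of a type and less RNA per cell cannot be told apart.

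Granins and the enzymes that process prohormones were mostly lower in level. Of 11 at 50 CPM or more, CHGA and CPE were apart and lower and 0 apart and higher, against 4.3% and 5.3% of all genes at that level. The median log2 fold change was -0.20. CHGA, chromogranin A, the main soluble protein of endocrine granules, was at 12412, 14378 and 12469 CPM in iKD2 Dox+ and 15692 and 16836 CPM in iSCR Dox+. The groups did not overlap, and the log2 fold change was -0.31 (SE 0.10, adjusted p = 0.533). CPE, carboxypeptidase E, which trims the cut ends of insulin, was at 594, 761 and 637 CPM against 1052 and 846 CPM (log2 fold change -0.52, SE 0.19). PCSK1, the convertase that cuts proinsulin first, went the other way in level, at 50.3, 94.6 and 72.4 CPM against 49.3 and 40.1 CPM (log2 fold change 0.70, SE 0.37).

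Genes of vesicle docking and release were also mostly lower in level. Of 14 exocytosis genes at 50 CPM or more, PTPRN and CPLX2 were apart and lower and 0 apart and higher, against 4.3% and 5.3% of all genes at that level, and 12 had a log2 fold change below 0 (median -0.28). CPLX2, a complexin that clamps the fusion machinery until calcium enters, was at 49.9, 57.0 and 42.6 CPM in iKD2 Dox+ and 98.6 and 129 CPM in iSCR Dox+. Its log2 fold change was -1.19 (SE 0.35, adjusted p = 0.459). PTPRN, the granule membrane protein IA-2, was at 314, 296 and 299 CPM against 413 and 483 CPM (log2 fold change -0.57, SE 0.22). RAB3B and SYT7, a GTPase and a calcium sensor of granules, were at 468 to 653 against 685 and 696 CPM and at 431 to 506 against 516 and 593 CPM. Both were lower without overlap, with log2 fold changes of -0.32 (SE 0.18) and -0.26 (SE 0.19).

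Of 14 β-cell identity and secretion genes at 50 CPM or more, 4 were apart and lower, INS and PDX1 among them, and 0 apart and higher, against 4.3% and 5.3% of all such genes, with a median log2 fold change of -0.16. PDX1, a homeodomain factor that binds the insulin promoter, was at 70.9, 90.0 and 123 CPM against 152 and 189 CPM (log2 fold change -0.85, SE 0.30, adjusted p = 0.627). Every iKD2 Dox+ library lay below both scramble libraries, and iKD2 Dox- held 133 and 154 CPM.

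Most other identity genes described here overlapped between groups. NKX6-1 was at 164 to 231 CPM in iKD2 Dox+ and 224 and 253 CPM in iSCR Dox+, and NEUROD1 at 181 to 254 against 233 and 269 CPM. ABCC8, the sulfonylurea receptor of the β-cell potassium channel, was at 359, 545 and 410 against 354 and 378 CPM, and SLC30A8, the zinc transporter of insulin granules, at 303, 372 and 476 against 337 and 310 CPM. These 2 had log2 fold changes of 0.26 and 0.25 (SE 0.21 and 0.24). None of 5 zinc transport and metallothionein genes at 50 CPM or more was apart, and their median was 0.16. PAX6 was at 189, 365 and 336 CPM against 412 and 381 CPM, lower without overlap, with iKD2 Dox+ a furthest below (log2 fold change -0.42, SE 0.24).

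**Figure D2:**
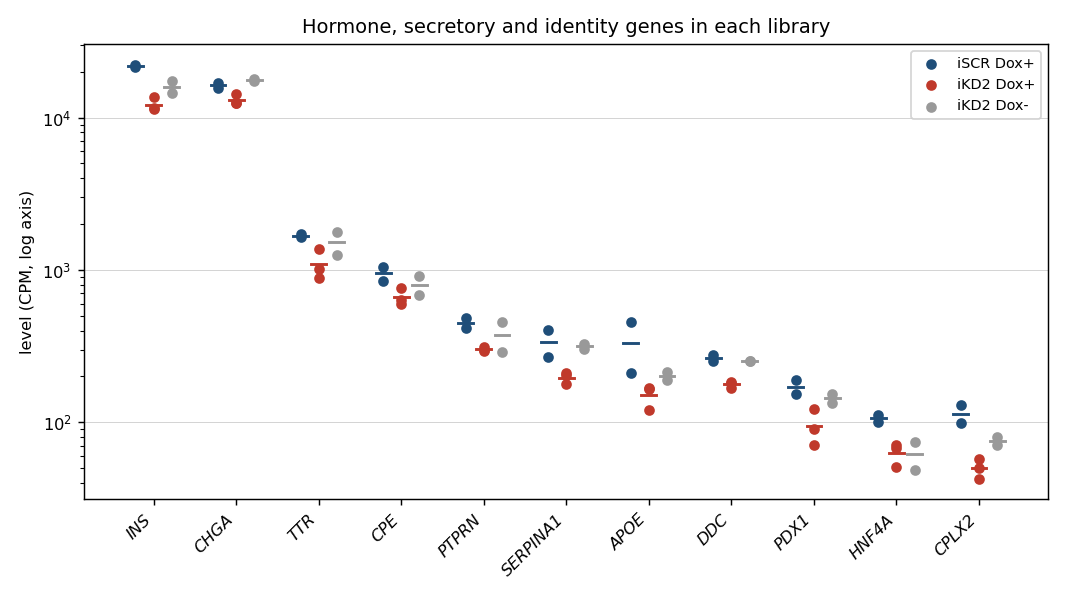
Levels (CPM, log axis) of 11 hormone, secretory and identity genes in each library, with blue points for iSCR Dox+, red for iKD2 Dox+ and grey for iKD2 Dox-, and bars at the group means. The genes drawn were chosen from those apart and lower, so in each the 3 iKD2 Dox+ libraries sit below both iSCR Dox+ libraries. Levels run from INS (11322 to 13542 against 21426 and 22232 CPM) to CPLX2 (42.6 to 57.0 against 98.6 and 129 CPM).

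Transcription factors of the foregut split. HNF4A, mutated in a form of maturity-onset diabetes, was at 67.7, 50.9 and 71.2 CPM in iKD2 Dox+ and 112 and 100 CPM in iSCR Dox+ (log2 fold change -0.75, SE 0.36), with iKD2 Dox- at 74.5 and 48.3 CPM, near that of iKD2 Dox+. SOX9, a factor of pancreatic progenitors and ducts, was at 178, 202 and 150 CPM against 78.0 and 125 CPM (log2 fold change 0.80, SE 0.31, adjusted p = 0.679), with iKD2 Dox- at 89.6 and 71.9 CPM. The value for SOX9 was 0.50 without iSCR Dox+ a and 1.18 without b. Of 7 such factors at 50 CPM or more, these were the only ones apart. Of 17 islet endocrine factors, 2 were apart and lower, PDX1 among them (median -0.21), and of 9 maturity-onset diabetes genes 4 were, including HNF4A, PDX1 and INS (median -0.41). Over all genes at 50 CPM or more 4.3% were apart and lower. The lists share members.

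Of 13 genes at 50 CPM or more that the study named for these cells, 5 were apart and lower (INS, CHGA, TTR and PDX1 among them) and 2 apart and higher (KRT19 and SOX9). Over all genes at that level the shares were 4.3% and 5.3%. The study chose these genes on the same samples, so the count is not independent evidence of a direction.

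Secreted proteins typical of liver, which foregut derivatives also make, had the lowest median of the lists with 5 or more genes at 50 CPM, at -0.77. Of 5 genes, TTR, APOE and SERPINA1 were apart and lower, against 4.3% of all genes at that level. APOE, a lipid carrier, was at 119, 166 and 169 CPM in iKD2 Dox+ and 210 and 454 CPM in iSCR Dox+, with a log2 difference of -1.13 (SE 0.28, adjusted p = 0.304). The scramble libraries differed by more from each other than the lower of them did from iKD2 Dox+. Without iSCR Dox+ b the value for APOE was -0.47. SERPINA1, antitrypsin, was at 203, 210 and 177 CPM against 400 and 270 CPM (log2 fold change -0.77, SE 0.23, and -0.46 without iSCR Dox+ a). APOB was at 36.9, 236 and 123 CPM against 214 and 292 CPM and overlapped between groups.

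MUC16 was the abundant gene that rose. It encodes a large membrane mucin of epithelial surfaces, known as CA125, and lies on chromosome 19 (8848844 to 8981342). iKD2 Dox+ gave 2589, 2451 and 3019 CPM and iSCR Dox+ 1353 and 1056 CPM, without overlap. Its log2 fold change, 1.16, had an SE of 0.17 (95% CI 0.81 to 1.51, edgeR adjusted p = 0.00483). In iKD2 Dox- MUC16 was at 710 and 924 CPM, below both scramble libraries. The call was lost without iKD2 Dox+ a (adjusted p = 0.109) and without iKD2 Dox+ c (adjusted p = 0.0962).

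Among other genes of epithelial surfaces and junctions the direction was mixed. Of 8 mucins and surface glycoproteins at 50 CPM or more, MUC16 and VTCN1 were apart and higher and 0 apart and lower, against 5.3% and 4.3% of all genes at that level. VTCN1, an immune checkpoint ligand of epithelia, was at 145, 111 and 113 CPM against 57.9 and 82.6 CPM (log2 fold change 0.81, SE 0.36). MUC3A did not follow, at 159, 153 and 268 against 244 and 228 CPM. Of 7 tight junction genes 2 were apart and higher, CLDN4 among them, with 4 log2 fold changes above 0 and 3 below. CLDN4, a claudin, was at 337, 240 and 211 CPM against 123 and 144 CPM (log2 fold change 0.97, SE 0.29, adjusted p = 0.466).

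Keratins and desmosome genes held the most genes apart and higher of any list. Of 11 at 50 CPM or more, 5 were apart and higher (KRT18, KRT19, DSG2, DSC2 and DSC3), and 0 apart and lower, against 5.3% and 4.3% of all genes at that level. Without overlap, whatever the p, 7 were higher and 2 lower, against 13.1% and 12.5%. Their median log2 fold change was 0.52. KRT19, a keratin of ducts and simple epithelia, was at 532, 625 and 638 CPM in iKD2 Dox+ and 394 and 301 CPM in iSCR Dox+, with a log2 difference of 0.78 (SE 0.21, adjusted p = 0.371). KRT18 was at 437, 358 and 389 against 309 and 167 CPM. Its scramble libraries differed by nearly as much as the groups, and its log2 fold change was 0.35 without iSCR Dox+ b and 1.24 without iSCR Dox+ a.

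Desmosomal cadherins, which join neighbouring epithelial cells, were higher in level, while the plaque protein was not. DSG2 was at 401, 332 and 322 CPM against 207 and 223 CPM (log2 fold change 0.71 ± 0.23 SE, adjusted p = 0.579). DSC2 was at 229, 249 and 260 against 135 and 190 CPM and DSC3 at 198, 119 and 227 against 70.5 and 118 CPM. Without iSCR Dox+ a the log2 fold changes of DSC2 and DSC3 were 0.38 and 0.62, against 0.60 and 0.95 with it. The gap of DSC3 between iKD2 Dox+ b and iSCR Dox+ b was small (119 against 118 CPM). DSP, desmoplakin, which anchors desmosomes to keratin, was at 3952, 3568 and 3894 CPM against 4356 and 4251 CPM, lower without overlap (log2 fold change -0.18, SE 0.12).

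**Figure D3:**
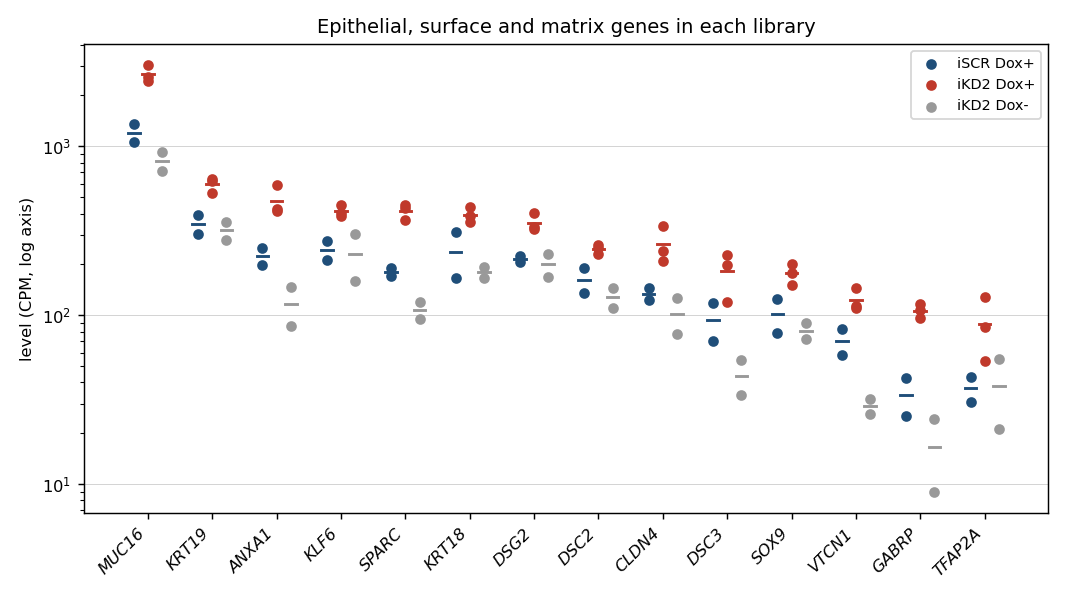
Levels (CPM, log axis) of 14 epithelial, surface and matrix genes in each library, with blue points for iSCR Dox+, red for iKD2 Dox+ and grey for iKD2 Dox-, and bars at the group means. The genes drawn were chosen from those apart and higher, so in each the 3 iKD2 Dox+ libraries sit above both iSCR Dox+ libraries. iKD2 Dox- lies below iSCR Dox+ in several of them, for example MUC16 (710 and 924 CPM) and SPARC (120 and 95.1 CPM).

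SPARC, a secreted glycoprotein that binds collagen, had the lowest adjusted p of the genes at 50 CPM or more in the lists that were not called (0.116). Its levels were 434, 452 and 365 CPM in iKD2 Dox+ and 190 and 171 CPM in iSCR Dox+, a log2 fold change of 1.21 (SE 0.24, 95% CI 0.72 to 1.70). ANXA1, an annexin that binds phospholipid in the presence of calcium, was at 412, 425 and 587 CPM against 198 and 251 CPM (log2 fold change 1.08, SE 0.26, adjusted p = 0.264). It was the only one of 6 annexins apart (median 0.19), and ANXA2 overlapped at 248 to 361 against 207 and 335 CPM. Of 18 collagens and laminins at 50 CPM or more, COL6A3 and LAMB1 were apart and higher and 0 apart and lower, against 5.3% and 4.3% of all such genes. In this list 15 log2 fold changes were above 0, and the median was 0.43, or 0.14 without iSCR Dox+ b. COL6A3, a chain of collagen VI, was at 81.8, 103 and 117 against 37.5 and 58.1 CPM (log2 fold change 1.07, SE 0.39). FN1 and COL3A1 overlapped between groups, at 1187 to 1513 against 635 and 1212 CPM and at 478 to 877 against 469 and 503 CPM.

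GABRP, TFAP2A and VTCN1 are markers of surface ectoderm and amnion, and 3 of 9 such markers at 50 CPM or more were apart and higher and 0 apart and lower, against 5.3% and 4.3% of all such genes, with a median log2 fold change of 0.69. GABRP, a GABA receptor subunit of epithelia, was at 116, 95.7 and 108 CPM in iKD2 Dox+ and 42.3 and 25.3 CPM in iSCR Dox+, with a log2 difference of 1.65 (SE 0.47, adjusted p = 0.448). iKD2 Dox- held 24.3 and 9.02 CPM. TFAP2A, a transcription factor of ectoderm, was at 129, 85.5 and 53.5 against 30.7 and 43.0 CPM. KRT17, of the same list, was at 63.6, 138 and 144 CPM against 58.6 and 29.7 CPM, with an SE of 0.98 around its log2 fold change of 1.38. Of the 9 markers, 7 had a log2 fold change above 0 and 2 below. Without overlap, whatever the p, 5 were higher and 1 lower, against 13.1% and 12.5% of all genes at that level. IGFBP3, also listed, was at 899, 552 and 345 CPM against 839 and 529 CPM and overlapped between groups (log2 fold change -0.19, SE 0.39).

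Markers of other cells were summed over each list to describe what the sorted cells held. Ductal markers summed to 1321 to 1387 CPM in iKD2 Dox+ and 743 to 969 CPM in iSCR Dox+, with SOX9, KRT19 and CLDN4 apart and higher of 5 genes at 50 CPM or more. Over all genes at that level 5.3% were apart and higher. Surface ectoderm and amnion markers summed to 1318 to 1839 against 1032 to 1425 CPM and mesenchymal markers to 2766 to 3779 against 2078 to 2929 CPM, where SPARC was the only one of 6 apart. KRT14 of the ectoderm list was at 0 in all 5 libraries. α-Cell markers summed to 6567 to 11484 against 11781 to 13251 CPM, mostly GCG, with TTR the only one of 6 apart and FAP at 0.

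Acinar markers summed to 9.49 to 34.2 CPM against 26.5 to 31.9 CPM, with CELA3A, CTRB1, PNLIP, AMY2A and PTF1A at 0. Pluripotency markers summed to 58.7 to 165 against 84.3 to 89.0 CPM, with UTF1 at 0, and neither list had a member at 50 CPM. Endothelial and blood markers summed to 213 to 353 against 159 to 257 CPM, and HBB and HBG1 were at 0. δ-Cell and enterochromaffin markers overlapped between groups in sum, at 2190 to 4064 against 2086 to 3877 CPM and at 1706 to 2045 against 1632 to 1758 CPM. DDC, which makes dopamine and serotonin, was apart and lower at 168, 180 and 183 against 277 and 254 CPM. The part of other cell types in the levels of insulin, granule and epithelial genes was not tested.

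The m6A machinery was examined next, as the complex the shRNA targets. None of 7 writers and erasers at 50 CPM or more was apart, and all 7 overlapped between groups (median log2 fold change 0.27). METTL3, the catalytic partner of METTL14, was at 25.0, 11.5 and 25.2 CPM against 13.2 and 31.4 CPM, and WTAP at 70.1 ± 20.4 (SD, n = 3) against 58.0 ± 12.8 CPM (n = 2). ZC3H13 was at 174 to 231 against 148 and 312 CPM. The demethylase ALKBH5 was at 146 to 234 against 74.2 and 185 CPM, and FTO at 74.3 to 129 against 38.1 and 98.7 CPM. For METTL3, ZC3H13, ALKBH5 and FTO the scramble libraries differed from each other by more than the group means did.

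Of 12 m6A readers at 50 CPM or more, YTHDF2 was apart and higher and 0 were apart and lower (median 0.21). Among all genes at that level these shares were 5.3% and 4.3%. YTHDF2, a reader that promotes decay of methylated mRNA, was at 94.7, 113 and 90.9 CPM in iKD2 Dox+ and 56.6 and 48.4 CPM in iSCR Dox+, with a log2 difference of 0.92 (SE 0.33, adjusted p = 0.655). Its level in iKD2 Dox- was 97.7 and 127 CPM, within or above the range of iKD2 Dox+. HNRNPA2B1 was at 608 to 653 against 537 and 635 CPM.

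**Figure D4:**
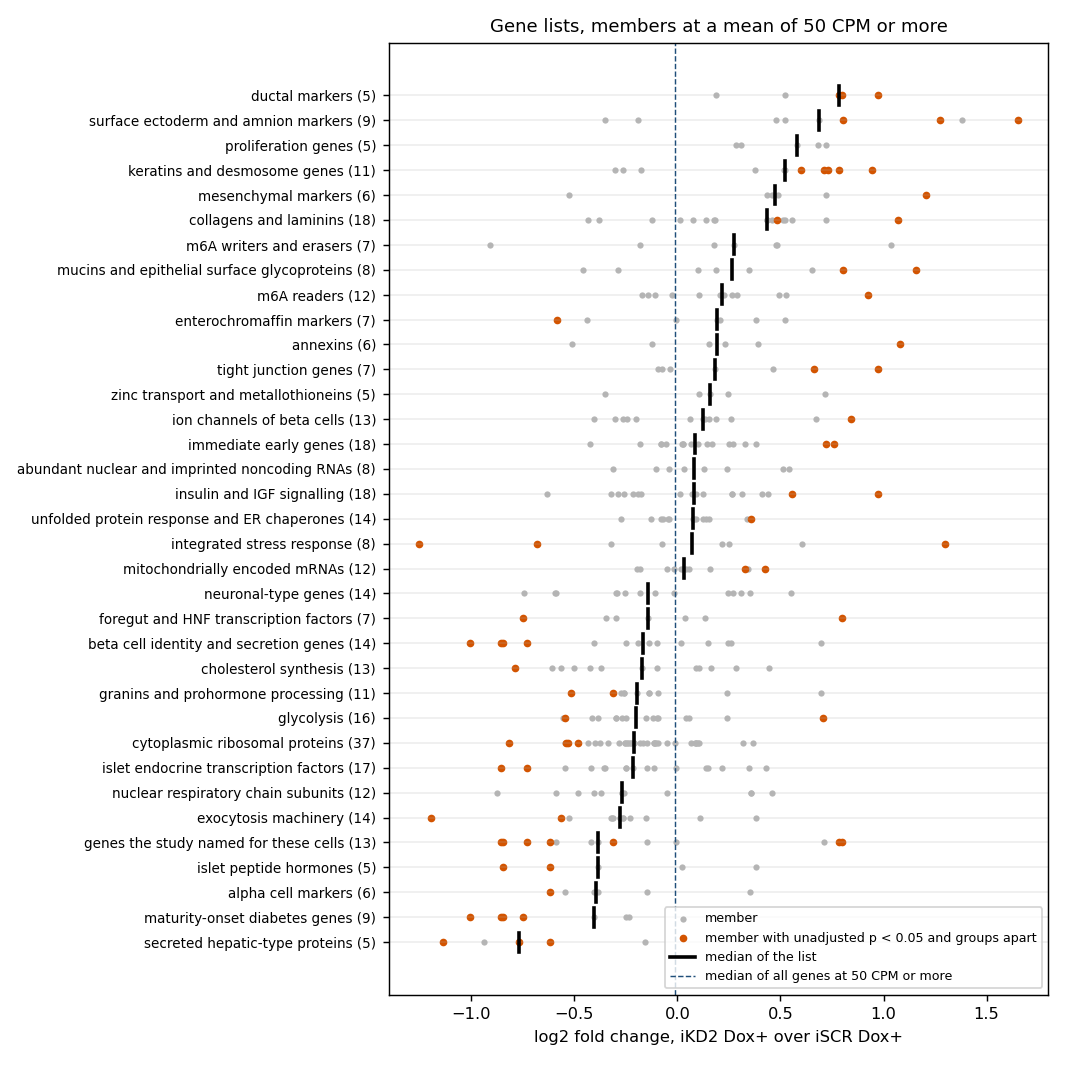
Log2 fold changes of iKD2 Dox+ over iSCR Dox+ (x axis) of the members at 50 CPM or more of 35 gene lists with at least 5 such members, numbers of which stand in brackets. Orange points are members apart between groups, black bars are list medians, from 0.78 (ductal markers) to -0.77 (secreted hepatic-type proteins), and the dashed line is the median of all genes at 50 CPM or more (-0.01).

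Stress genes showed no common direction. Of 8 integrated stress response genes at 50 CPM or more, ATF4 and STC2 were apart and lower and DDIT4 apart and higher. Over all genes at that level 4.3% were apart and lower and 5.3% apart and higher. ATF4, the factor that drives that response, was at 242, 235 and 217 CPM against 424 and 317 CPM (log2 fold change -0.68, SE 0.23), with iKD2 Dox- at 212 and 165 CPM. STC2, a secreted glycoprotein, was at 75.7, 60.9 and 85.1 CPM against 150 and 203 CPM (log2 fold change -1.25, SE 0.31, adjusted p = 0.280). DDIT4, an inhibitor of mTORC1, was at 103, 115 and 94.7 CPM against 27.1 and 57.4 CPM (log2 fold change 1.30, SE 0.40). Of 14 genes of the unfolded protein response only CALR, a calcium-binding chaperone, was apart (1142 to 1179 against 816 and 998 CPM), and HSPA5 overlapped at 822 to 1062 against 762 and 966 CPM.

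KLF4 and KLF6 were apart and higher among 18 immediate early genes (median 0.08), against 5.3% of all genes at 50 CPM or more. KLF6 was at 389, 401 and 448 against 212 and 275 CPM. Of 4 p53 targets and apoptosis genes at 50 CPM or more 0 were apart, and of 3 interferon-stimulated genes STAT2 was apart and higher. Proliferation genes had 0 of 5 apart and a median of 0.58. MKI67, a marker of cycling cells, was at 382, 254 and 286 CPM against 293 and 118 CPM and overlapped between groups. The median of that list was 0.07 without iSCR Dox+ b and 1.16 without iSCR Dox+ a.

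Ribosomal and metabolic genes had medians close to 0 or below it. Of 37 cytoplasmic ribosomal protein genes at 50 CPM or more, 4 were apart and lower, RPL18, RPS2 and RPS14 among them, and 0 apart and higher. Over all genes at that level the shares were 4.3% and 5.3%. Without overlap, whatever the p, 9 were lower and 1 higher, against 12.5% and 13.1%. RPL18 was at 174, 168 and 179 CPM against 251 and 255 CPM, a log2 fold change of -0.54 (SE 0.23), and the list had a median of -0.21. Counts of RPS2 and RPS14 were not whole in 7 libraries, and which other features shared their reads was not examined. Without iSCR Dox+ a the median of the list was -0.04.

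Of 12 mitochondrially encoded mRNAs, MT-CYB and MT-CO2 were apart and higher (median 0.03), against 5.3% of all genes at 50 CPM or more. MT-CYB was at 2148, 2216 and 2313 CPM against 1615 and 1700 CPM, and MT-CO1 overlapped. Nuclear respiratory chain subunits had 0 of 12 apart (median -0.27). Of 16 glycolysis genes, subunits of phosphofructokinase differed in direction. PFKP was lower, at 235 ± 40.1 (SD, n = 3) against 342 ± 71.3 CPM (n = 2), and PFKL higher at 221, 183 and 227 against 157 and 100 CPM. SQLE, squalene epoxidase of sterol synthesis, was the only one of 13 cholesterol genes apart, at 74.4, 66.3 and 82.6 against 140 and 118 CPM.

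Of 18 insulin and IGF signalling genes, IRS2 and IGFBP7 were apart and higher, against 5.3% of all genes at that level. IRS2, the insulin receptor substrate, was at 217, 239 and 244 CPM against 159 and 159 CPM. IGF2, the most abundant transcript of the 5 libraries and the neighbour of INS, was at 29972, 27461 and 31835 CPM against 30078 and 28839 CPM (log2 fold change 0.01, SE 0.09, 95% CI -0.17 to 0.20). Of 13 ion channel genes CACNA1C, the pore subunit of an L-type calcium channel, was apart and higher (78.3, 83.8 and 90.8 against 53.4 and 40.7 CPM), a share near the 5.3% of all genes. None of 4 integrins, 14 neuronal-type genes and 8 abundant nuclear or imprinted noncoding RNAs at 50 CPM or more was apart.

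The lowest 12 log2 fold changes among genes apart at 50 CPM or more ran from -1.73 to -1.32 and belonged to NNT, ARHGAP33, ANKRD28, EGFL7, IQGAP2, CSTPP1, NKAP, GPRASP1, PLOD2, PCNX1, CAMK1D and IRX2-DT. All but PLOD2 and PCNX1 had an iKD2 Dox+ mean under 50 CPM, so they passed that level only through iSCR Dox+. NNT, the mitochondrial transhydrogenase that makes NADPH, was at 28.9, 32.7 and 36.4 CPM in iKD2 Dox+ and 114 and 103 CPM in iSCR Dox+. The groups were far apart relative to their spread (log2 fold change -1.73, SE 0.38, adjusted p = 0.181), and iKD2 Dox- held 70.8 and 49.8 CPM. PCNX1 was at 81.1, 84.8 and 75.8 CPM against 170 and 233 CPM (log2 fold change -1.32, SE 0.28, adjusted p = 0.156). ANKRD28, a subunit of a protein phosphatase complex, was at 51.7, 23.3 and 31.7 CPM against 147 and 77.2 CPM, with iKD2 Dox- at 27.3 and 24.4 CPM. IQGAP2 was at 4.06 CPM in iKD2 Dox+ a and 47.0 and 36.0 CPM in b and c.

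The highest 12 ran from 1.67 to 2.55 and belonged to ZBED6, TRERF1, SMARCD2, XYLT2, CIT, AKT1S1, TRIM29, LSM14A, USP25, CRIM1, BAG3 and ENSG00000225073. Their iSCR Dox+ means were all under 50 CPM, from 16.4 CPM (SMARCD2) to 43.7 CPM (ENSG00000225073). They thus passed that level only through iKD2 Dox+. SMARCD2, a subunit of SWI/SNF chromatin remodelers, was at 66.9, 72.3 and 80.1 CPM in iKD2 Dox+ and 14.4 and 18.4 CPM in iSCR Dox+, with a log2 difference of 2.16 (SE 0.45, adjusted p = 0.136). Its level in iKD2 Dox- was 64.7 and 70.7 CPM, close to that of iKD2 Dox+. XYLT2, which starts proteoglycan sugar chains, was at 90.3, 81.8 and 73.6 CPM against 20.9 and 16.9 CPM, with iKD2 Dox- at 26.6 and 37.8 CPM. TRERF1, a transcriptional regulator, was at 55.6 to 130 CPM against a mean of 20.3 CPM, and at 50.7 and 86.8 CPM in iKD2 Dox-. TRIM29, a protein of stratified epithelia, was at 86.9, 124 and 165 CPM against 25.8 and 42.0 CPM. BAG3, a cochaperone, was at 186 CPM in iKD2 Dox+ a and 62.2 and 54.9 CPM in b and c, and its log2 fold change was 1.71 with and 0.92 without iKD2 Dox+ a.

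ZBED6 had the highest of these values and shares its locus with ZC3H11A. Both lie on the plus strand of chromosome 1 (203795714 to 203854999 for ZBED6), and 96.0% of the exon bases of ZBED6 in GENCODE 29 are also exons of ZC3H11A. ZBED6, a repressor of IGF2 transcription, was at 248, 243 and 232 CPM in iKD2 Dox+ and 65.6 and 16.5 CPM in iSCR Dox+. ZC3H11A, an mRNA export factor, was at 69.7, 107 and 126 against 192 and 296 CPM. The sum of both was 318, 350 and 358 CPM against 258 and 312 CPM, a log2 ratio of the means of 0.26 in place of 2.55 for ZBED6 alone.

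ZBED6 took 64.8% to 78.1% of that sum in iKD2 Dox+, 5.27% to 25.4% in iSCR Dox+ and 69.6% to 73.8% in iKD2 Dox-. Counts of ZBED6 were not whole in all 7 libraries, so that its reads were divided with another gene. The levels in iKD2 Dox- were 221 and 246 CPM for ZBED6 and 96.6 and 87.1 CPM for ZC3H11A, close to those of iKD2 Dox+.

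**Figure D5:**
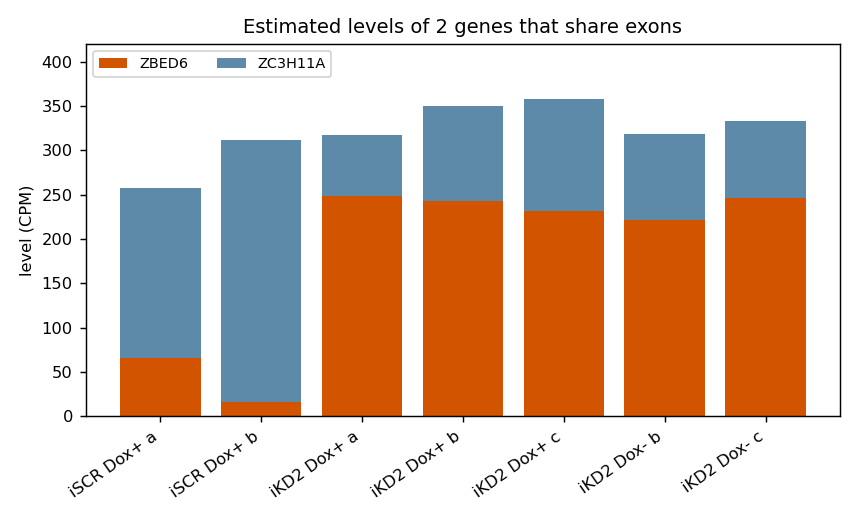
Stacked bars give the level (CPM) of ZBED6 (orange) and ZC3H11A (blue) in each of the 7 libraries. The whole bar is close to even (258 to 358 CPM), while ZBED6 takes 5.27% to 25.4% of it in iSCR Dox+ and 64.8% or more in the 5 iKD2 libraries.

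The other 4 called genes are Ensembl identifiers at a mean under 50 CPM. Both scramble libraries had 0 rounded counts of ENSG00000288198, ENSG00000282034 and ENSG00000284933. Against a floor of 3 counts over that group, ENSG00000288198 was at least 491-fold higher in iKD2 Dox+ and at least 387-fold higher in iKD2 Dox-. The bounds were 450-fold and 400-fold for ENSG00000282034 and 212-fold and 229-fold for ENSG00000284933, in the same order. The lowest bounds without one iKD2 Dox+ library were 410-fold (without c), 230-fold (without c) and 122-fold (without b). ENSG00000274287 was at 106, 45.2 and 52.4 CPM against 4.21 and 2.04 CPM (log2 fold change 4.44 ± 0.66 SE, adjusted p = 0.00553), with iKD2 Dox- at 33.0 and 53.5 CPM.

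Among these 4, only ENSG00000282034 was in the annotation used here, on the plus strand of chromosome 16 (30704067 to 30745169), where 86.7% of its exon bases are shared with SRCAP, an ATPase that places the histone variant H2A.Z. Its levels in iKD2 Dox+ were 14.2, 32.0 and 89.5 CPM, and SRCAP was at 147, 315 and 194 CPM against 202 and 331 CPM. The sum of both was 161, 347 and 284 CPM against 202 and 331 CPM, which overlapped between groups. Counts of the 4 genes were not whole in 5 to 7 of the 7 libraries.

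Annotated exon overlap was uncommon among the abundant genes, whereas counts that were not whole were common. In the 5 libraries compared, 54.8% of genes at 50 CPM or more and 54.3% of genes apart held such a count. Of 4281 genes at 50 CPM or more, 2.10% shared at least 20% of their exon bases with another tested gene of the same strand, and of the 411 genes apart 2.68% did. Genes apart were protein coding in 96.9% (higher) and 96.7% (lower) of cases, against 94.7% of all genes at that level.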

How the data were processed

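Stranded total RNA was sequenced from sorted stage 6 cells of 7 libraries, 3 iKD2 Dox+, 2 iSCR Dox+ and 2 iKD2 Dox-. The authors trimmed reads with fastp and quantified them with kallisto, summed to genes by tximport, per the labels and the study's methods, and the deposited table holds estimated counts per Ensembl gene with no normalization. Versions, genome build, annotation and strand setting are not given in the sources used here. Estimated counts were rounded and fitted over the 3 groups with edgeR 4.0.16 (robust quasi-likelihood test, filterByExpr, TMM factors) in R 4.3.3, with Benjamini-Hochberg adjustment over 22926 genes and calls at 0.05. CPM used the TMM factors. Alternatives used DESeq2 1.42.0 and limma 3.58.1, and the fit was tested on simulated data. Of 66025 gene IDs, 59369 were in the name table and 57402 in GENCODE 29 (GRCh38), matched by ID, from which coordinates were taken. Promoters came from RefSeq GRCh38.p14. All columns were mapped by their titles.

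The text names METTL14, called genes, the 12 genes of highest and 12 of lowest fold change that were apart at 50 CPM or more, list members apart, and up to 4 members of each list by level. METTL3, WTAP, PCSK1, NKX6-1, the genes that share exons (INS-IGF2, SRCAP, ZC3H11A) and the cell type markers at 0 were named outside that rule, after their values were seen. The comparison and its 42 gene lists were chosen with earlier results of these data known, and the counts of genes apart were added to the alternatives after seeing the data. Y-linked genes and XIST were not named. Some other genes that meet the rule are not reported here. Intervals cover the spread between libraries within groups, pooled over the 3 groups of the fit. Each edgeR SE was derived from the log2 fold change and the F statistic of the quasi-likelihood test. The depth of 14875429 to 17126315 counts limits genes under 50 CPM most. At 10 to 50 CPM the median interval spans a factor of 3.06 either way.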

Additional observations from a re-analysis of the deposited data

How the results depend on the processing

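The log2 fold changes of INS and MUC16 kept their sign under all alternatives run, and past the threshold INS stood in 15 of 17 and MUC16 in 14 of 17. With a minimum mean of 5 CPM, INS was at -0.86 (edgeR adjusted p = 0.0502) and MUC16 had an adjusted p of 0.115. Leaving out 1 library, INS ranged from -0.94 to -0.80. Calls, 6 over all genes and 2 at 50 CPM or more, became 66 and 28 with no filter beyond 1 count, 1 and 0 with a minimum mean of 5 CPM, and 791 and 162 with the DESeq2 Wald test. A minimum mean of 50 CPM gave 5 calls at that level and limma voom 4. Leaving out 1 library gave 2 to 544 calls, and 0 to 140 at 50 CPM or more. Without iSCR Dox+ a or b the median over all genes moved by 0.20 and 0.41. The cause of these changes was not tested. With the letter as a replicate block there were 15 and 7 calls over 3 groups, and 28 and 9 over the 5 libraries, where the granin list's median was -0.04. Deviations from the group means correlated at -0.0216 to 0.0614 between libraries of one letter. In a group of 2 libraries these deviations mirror each other, so the check cannot settle whether the letters pair samples. Genes apart fell to as few as 155 (higher) and 94 (lower) over the alternatives. Their highest numbers came from a fit with 1 scramble library, where the rule is easier to meet, and are not given. The sign of the list median turned under some alternative for the foregut, ion channel, m6A writer, integrated stress, immediate early, p53, interferon, mitochondrial, tight junction, noncoding, neuronal, insulin and IGF, δ-cell and enterochromaffin lists.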
